A study of Mus musculus with 38 samples.

Results

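B6-ChrXTMSM testes were compared with B6-ChrXMSM testes at 7 days postpartum (dpp), using 6 of the 38 arrays of the series. Each group held 3 males, with the testes of 1 male on each array. Both are chromosome substitution strains on the laboratory strain C57BL/6J (B6). In them a chromosome or a piece of one from the strain MSM, derived from Japanese wild mice of Mus musculus molossinus, replaces its B6 counterpart. B6-ChrXTMSM males carry the distal part of the X from MSM, whereas B6-ChrXMSM males carry nearly the entire X from MSM. The autosomes are of B6 origin in both. By design the proximal X differed, being B6-derived in B6-ChrXTMSM and MSM-derived in B6-ChrXMSM, and the distal X was MSM-derived in both up to its far end. There the methods place the end of the MSM segment of B6-ChrXTMSM before that of B6-ChrXMSM, so the strains may also differ in the last genes of the X. The results text of the study gives these ends in the reverse order, so where the strains differ there is not settled. Both strains have impaired males, as the study describes B6-ChrXMSM males as sterile and B6-ChrXTMSM males as sub-fertile. Levels of the same genes are also given from further arrays: B6-ChrXTMSM and B6-ChrXMSM testes at 5 dpp (3 other males each), 7 dpp testes of F1 males from the cross of B6-ChrXTMSM with B6-Chr1MSM (8 males, with a B6 proximal X, an MSM distal X and 1 MSM chromosome 1), and the parental strains B6 and MSM at 7 dpp (3 males each).

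In the first week after birth the testis holds spermatogonia inside cords of Sertoli cells, with peritubular myoid cells, Leydig cells, vessels and macrophages around them. Retinoic acid then drives spermatogonia to differentiate and to enter meiosis. The X is rich in genes used by spermatogonia and by Sertoli cells, and incompatibilities between an X of one subspecies and autosomes of another are a known source of male sterility in mice. The comparison asks what a foreign proximal X adds in a testis that already carries a foreign distal X.

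RNA was measured on an array with several probe sets (groups of short probes) for many transcripts. Values are log2 RMA signals, on which a difference of 1 is a 2-fold change, and all fold changes are B6-ChrXTMSM over B6-ChrXMSM unless another pair is named. The array medians lay between 2.63 and 2.71 over all 38 arrays. A probe set was tested if its group mean exceeded a linear signal of 10 in at least 1 strain. A call needed an adjusted p under 0.05 in limma and a change of at least 1.5-fold.

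Of 16860 probe sets tested, 52 were called (0.308%), and they belonged to 41 genes. In B6-ChrXTMSM testes 22 probe sets were upregulated (0.13%) and 30 were downregulated (0.178%). Most of the calls lay on the proximal X, where 31 of 244 probe sets were called (12.7%), 21 higher and 10 lower, from 23 of 151 genes. On the autosomes 20 of 16383 were called (0.122%), 1 higher and 19 lower, and on the distal X 1 of 226 (0.442%). The 226 include 10 probe sets of 8 genes that lie past Rab9, the last gene placed inside the MSM segment of B6-ChrXTMSM, and none of the 10 was called. None was called among 5 probe sets of the X before the MSM segment or 2 in the interval that holds the boundary. The SD of the log2 fold changes was 0.55 over the proximal X, 0.23 over the distal X and 0.13 over the autosomes. Over the distal X without those 10, a division chosen after the values were seen, it was 0.15. The 3 arrays of one strain did not overlap the 3 of the other for 2890 of the 16860 probe sets (17.1%), and this held for all 31 proximal calls.

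**Figure D1:**
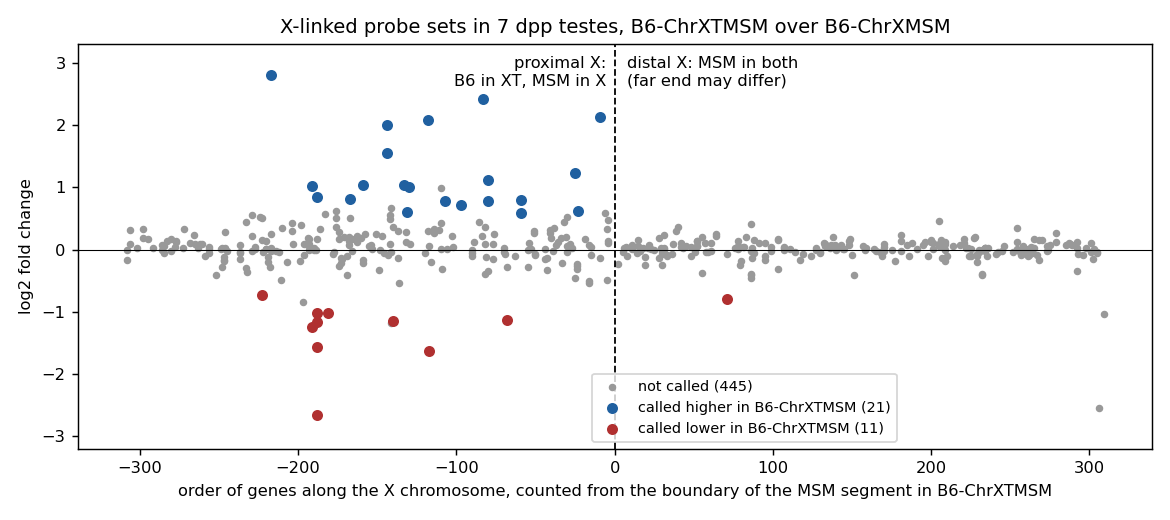
Log2 fold change (B6-ChrXTMSM over B6-ChrXMSM, 7 dpp) of each tested X-linked probe set, by the order of genes from the boundary (dashed line) between the proximal X (left, with the 5 probe sets before the MSM segment at its far end) and the distal X (right, MSM-derived in both strains except possibly at its far end). The 31 proximal calls lie on both sides of 0, and the distal X has 1 call. The lone grey points at the far right are Mid1 and, beyond it, Erdr1, which were not called. The Mid1 probe set aligns past the end that the methods state for the MSM segment of either strain.

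The called genes spread along the proximal X from Rp2, 224 genes before the boundary, to Prrg1, 10 genes before it. The last gene placed before the boundary was 5430427O19Rik, starting at 83133167 of chromosome X in mm9, and the first after it was Pcyt1b, at 90980231. The spans given below are those that a probe set aligns to in mm9, and whether they fall in an exon, an intron or a UTR was not analysed here.

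For 5 rising genes (Araf, Mamld1, Prrg1, Ints6l and Firre) the mean of a called probe set lay below the filter in B6-ChrXMSM testes. For 4 genes with a fall (Septin6, Mmgt1, Zfp185 and Rhox5) the mean of a called probe set lay below it in B6-ChrXTMSM testes. Over probe sets, 11 of the 31 proximal calls, and 24 of the 244 tested, passed the filter through 1 strain only. Of the 220 proximal probe sets above the filter in both strains, 20 were called, beside 18 of 15970 autosomal and 0 of 219 distal ones. The size of a log2 fold change that passed through 1 strain rests on a level below the filter. Its log2 value is printed below as fitted, and no linear fold is given for it. The windows around the transcription start of 4 of these genes are shown. The signal of a called probe set stood above the filter with one proximal X and below it with the other. Brighter probe sets of Araf and Zfp185 lay above the filter in both strains, so this is not a statement about the promoter. They are RefSeq sequences of GRCm38.p6, from 250 bases before to 50 bases after the start, and the reference is a B6 genome, the origin of this part of the X in B6-ChrXTMSM males. The MSM allele was not analysed. Capitals mark matches, on either strand, to CCAAT (the box bound by the factor NF-Y) and to GGGCGG (the core of the GC box), and in the Zfp185 window some matches overlap. Of the 23 called genes, 21 had a window. Those shown lie at chrX:20848293-20848592 (Araf, + strand), chrX:71050006-71050305 (Mamld1, + strand), chrX:50635272-50635571 (Firre, - strand) and chrX:72987089-72987388 (Zfp185, + strand).
Araf: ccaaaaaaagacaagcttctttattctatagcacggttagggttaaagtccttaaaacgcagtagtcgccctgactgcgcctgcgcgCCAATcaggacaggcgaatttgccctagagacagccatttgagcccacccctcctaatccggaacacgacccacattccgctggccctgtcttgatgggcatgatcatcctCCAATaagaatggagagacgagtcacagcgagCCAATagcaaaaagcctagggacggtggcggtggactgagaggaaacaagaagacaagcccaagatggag
Mamld1: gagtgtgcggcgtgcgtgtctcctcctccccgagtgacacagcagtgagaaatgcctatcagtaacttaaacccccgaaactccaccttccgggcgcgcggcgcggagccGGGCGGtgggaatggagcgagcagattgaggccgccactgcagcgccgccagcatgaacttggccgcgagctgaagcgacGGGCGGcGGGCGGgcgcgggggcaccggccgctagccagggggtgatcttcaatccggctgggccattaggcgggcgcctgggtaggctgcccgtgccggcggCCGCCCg
Firre: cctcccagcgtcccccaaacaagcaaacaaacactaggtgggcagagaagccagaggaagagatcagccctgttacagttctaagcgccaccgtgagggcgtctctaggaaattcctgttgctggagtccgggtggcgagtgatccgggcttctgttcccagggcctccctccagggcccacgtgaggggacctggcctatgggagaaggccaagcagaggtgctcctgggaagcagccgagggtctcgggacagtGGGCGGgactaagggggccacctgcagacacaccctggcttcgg
Zfp185: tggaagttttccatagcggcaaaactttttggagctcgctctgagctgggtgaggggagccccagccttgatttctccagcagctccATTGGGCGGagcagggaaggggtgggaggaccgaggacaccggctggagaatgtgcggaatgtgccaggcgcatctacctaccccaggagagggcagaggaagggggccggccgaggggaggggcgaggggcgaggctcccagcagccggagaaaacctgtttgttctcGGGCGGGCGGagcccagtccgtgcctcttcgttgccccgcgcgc

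The Araf window held 3 matches to CCAAT and none to the GC box core. The windows of Mamld1, Firre and Zfp185 held 4, 1 and 3 matches to that core, and that of Zfp185 also held 1 to CCAAT. Over 32851 windows of the same length, 37.4% held CCAAT and 35.7% held the GC box core. The TATA box letters TATAAA, which 13.6% of all windows held, were in none of the 4. The windows held 14, 36, 12 and 20 CpG in the order printed, against a median of 7 over all windows.

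The largest fitted rise was that of Araf, a RAF-family kinase of the MAPK cascade. Its signal was 5.25, 4.98 and 5.06 in B6-ChrXTMSM testes, against 2.64, 2.33 and 1.92 in B6-ChrXMSM testes. The lowest B6-ChrXTMSM male stood far above the highest B6-ChrXMSM male, at a log2 fold change of 2.80 (SE 0.16, limma adjusted p = 0.000313). The same probe set read 5.08 ± 0.06 in B6 and 2.28 ± 0.42 in MSM testes (SD, n = 3 each), and between 4.99 and 5.31 in the 8 F1 males.

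Mamld1 encodes a mastermind-like protein linked to testosterone production in the fetal testis. Its probe set (mm9 chrX:68375047-68375621) gave 4.48, 4.22 and 4.49 in B6-ChrXTMSM testes, against 2.01, 2.34 and 1.60 in B6-ChrXMSM testes. The log2 fold change was 2.42 (SE 0.17, limma adjusted p = 0.000706). B6 testes averaged 4.68 ± 0.13 and MSM testes 1.90 ± 0.07 (SD, n = 3 each), so that each substitution strain stood near the strain its proximal X came from.

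Firre is a long noncoding RNA gene of the X whose transcript organises nuclear chromatin. Its brighter tested probe set (mm9 chrX:47916296-47922553) read 4.25, 4.02 and 4.20 in B6-ChrXTMSM testes, against 2.23, 2.35 and 1.90 in B6-ChrXMSM testes. The groups did not overlap, and the log2 fold change was 1.99 (SE 0.12, limma adjusted p = 0.000313). The other tested probe set changed the same way, by 1.56.

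Prrg1, which encodes a transmembrane protein with a vitamin K-dependent Gla domain, read 4.86, 4.61 and 4.65 in B6-ChrXTMSM testes, against 2.24, 3.07 and 2.45 in B6-ChrXMSM testes (log2 fold change 2.12, SE 0.19, limma adjusted p = 0.00245). Ints6l, a paralogue of a subunit of the RNA-processing Integrator complex, read 4.11, 3.90 and 4.17 in B6-ChrXTMSM testes, against 2.17, 2.05 and 1.73 in B6-ChrXMSM testes (2.08, SE 0.12, limma adjusted p = 0.000313). In both genes all 3 B6-ChrXTMSM males stood above all 3 B6-ChrXMSM males.

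The next rises were smaller and came from probe sets above the filter in both strains. Fundc2, a FUN14-family protein of mitochondria, read 7.81, 7.70 and 7.87 in B6-ChrXTMSM testes, against 6.64, 6.43 and 6.65 in B6-ChrXMSM testes, and its log2 fold change was 1.22 (SE 0.08, limma adjusted p = 0.000445). Called probe sets of the adhesion glycoprotein gene Cd99l2 (1.12) and the inositol phosphatase gene Ocrl (1.03) rose by about the same amount on the log2 scale. So did those of the coiled-coil gene Ccdc160 (1.03) and Plac1, which is needed for placental growth (1.00). In this order the limma adjusted p-values were 0.000445, 0.0173, 0.000313 and 0.00045. The brightest probe sets of Cd99l2 and Ocrl went the other way (-0.35 and -0.17), and neither was called. Besides those of Bgn, Hprt and 1 probe set each of Septin6 and C330007P06Rik, the remaining called rises were those of Xiap (0.82), 4930550L24Rik (0.78), 4933402E13Rik (0.72) and Brcc3 (0.62).

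Bgn and Hprt were called from a list of matrix and signalling genes of the proximal X. Bgn, which encodes the matrix proteoglycan biglycan (mm9 chrX:70728980-70741722), read 8.96, 8.94 and 9.05 in B6-ChrXTMSM testes, against 8.07, 8.18 and 8.34 in B6-ChrXMSM testes (log2 fold change 0.79, SE 0.08, limma adjusted p = 0.00405). Hprt, the purine salvage enzyme gene often used as a stable reference (mm9 chrX:50341268-50374837), read 7.81, 7.82 and 7.83 in B6-ChrXTMSM testes, against 7.22, 7.20 and 7.22 in B6-ChrXMSM testes. Its 3 males of each strain lay within a few hundredths of one another, and its log2 fold change was 0.61 (SE 0.05, limma adjusted p = 0.00146).

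**Figure D2:**
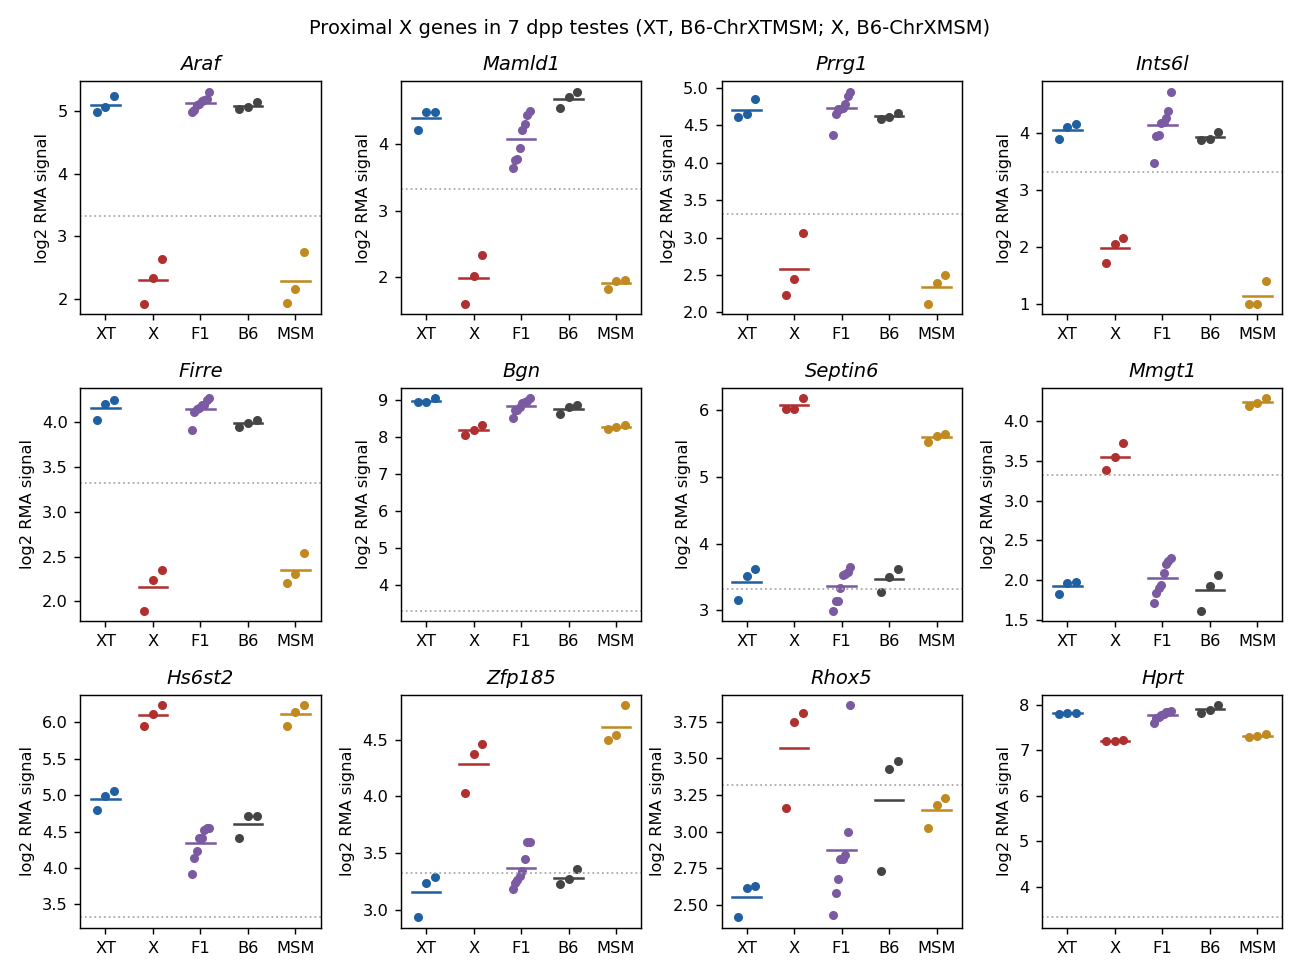
Log2 RMA signal of 12 called proximal X genes in each 7 dpp array of B6-ChrXTMSM (XT), B6-ChrXMSM (X), F1, B6 and MSM testes (points, 1 male each; lines, group means; dotted line, the signal filter of 10 on the linear scale). For Araf, XT arrays stand near B6 (5.08) and X arrays near MSM (2.28), whereas the F1 males of Rhox5 spread between 2.43 and 3.86.

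The largest fall was that of Septin6, which encodes a filament-forming GTPase (mm9 chrX:34455025-34529483). It read 3.51, 3.15 and 3.62 in B6-ChrXTMSM testes, against 6.18, 6.03 and 6.03 in B6-ChrXMSM testes. The groups stood far apart, at a log2 fold change of -2.65 (SE 0.12, 6.28-fold lower, limma adjusted p = 0.000189). In B6 testes it averaged 3.46 ± 0.17 and in MSM testes 5.60 ± 0.06 (SD, n = 3 each).

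Mmgt1, a subunit gene of the endoplasmic reticulum membrane complex, read 1.98, 1.97 and 1.82 in B6-ChrXTMSM testes, against 3.39, 3.55 and 3.73 in B6-ChrXMSM testes (log2 fold change -1.63, SE 0.09, limma adjusted p = 0.000313). Hs6st2, a heparan sulfate 6-O-sulfotransferase gene (mm9 chrX:48739813-49034558), read 4.99, 4.80 and 5.05 in B6-ChrXTMSM testes, against 6.24, 6.12 and 5.95 in B6-ChrXMSM testes (-1.15, SE 0.09, limma adjusted p = 0.00146). Zfp185, a LIM-domain gene of the actin cytoskeleton (mm9 chrX:70232677-70276879), read 3.29, 3.23 and 2.93 in B6-ChrXTMSM testes, against 4.03, 4.37 and 4.47 in B6-ChrXMSM testes (-1.14, SE 0.13, limma adjusted p = 0.00925). All 3 genes were lower in every B6-ChrXTMSM male than in any B6-ChrXMSM male, with Mmgt1 and Zfp185 below the filter in B6-ChrXTMSM testes.

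The called probe set of Rp2, which encodes a GTPase-activating protein for ARL3, fell by 0.73 on the log2 scale (SE 0.08, limma adjusted p = 0.00796). The brightest Rp2 probe set rose by 0.51 (limma adjusted p = 0.0307), below 1.5-fold. C330007P06Rik was called in both directions, with a log2 fold change of -1.24 for one probe set and 1.02 for another, and the study's probe set alignments place both on another chromosome. Without it the proximal X held 29 calls from 22 genes.

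Rhox5 belongs to the Rhox homeobox cluster of the proximal X, whose genes are active in reproductive tissues, and is transcribed in Sertoli cells. It read 2.63, 2.62 and 2.41 in B6-ChrXTMSM testes, against 3.75, 3.16 and 3.81 in B6-ChrXMSM testes (log2 fold change -1.02, SE 0.16, limma adjusted p = 0.0414). B6 testes averaged 3.21 ± 0.42 and MSM testes 3.15 ± 0.11 (SD, n = 3 each), which left both parents between the substitution strains and all groups close to the filter. Of 14 Rhox genes listed, 2 were tested, and the other, the germ cell gene Rhox13, was not called (log2 fold change -0.06, 95% interval -0.47 to 0.34).

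Other probe sets of the same genes often gave other values. Of the 23 called proximal genes, 15 had several tested probe sets. In only 2 of the 15 (Bgn and Firre) were all of them called the same way, and in 10 a single one was called. In 12 genes the brightest tested probe set was not the called one with the largest change, and the median absolute log2 fold change was 1.22 over the chosen called probe sets and 0.35 over the brightest ones. The brightest-probe-set value was -0.13 for Prrg1, 0.30 for Ints6l, 0.06 for Mmgt1 and 0.50 for Xiap. For Zfp185 it was -0.29 (limma adjusted p = 0.124). For Araf, the brightest over the 6 arrays gave 4.68 ± 0.09 in B6-ChrXTMSM testes and 4.70 ± 0.07 in B6-ChrXMSM testes (SD, n = 3 each), a log2 fold change of -0.02 with a 95% interval of -0.18 to 0.13.

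In 5 genes (C330007P06Rik, Fundc2, Hs6st2, Rp2 and Septin6) probe sets with limma adjusted p under 0.05 had opposite signs. For Hs6st2 the brightest probe set was higher in B6-ChrXTMSM testes, by 0.35 (95% interval 0.24 to 0.47). Septin6 had 4 called falls (-1.02 to -2.65) and 1 called rise (0.84). A value for one of these genes is therefore a value of a probe set, and whether it reflects the amount of RNA, the form of the transcript or base differences between the alleles under the probes was not tested.

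**Figure D3:**
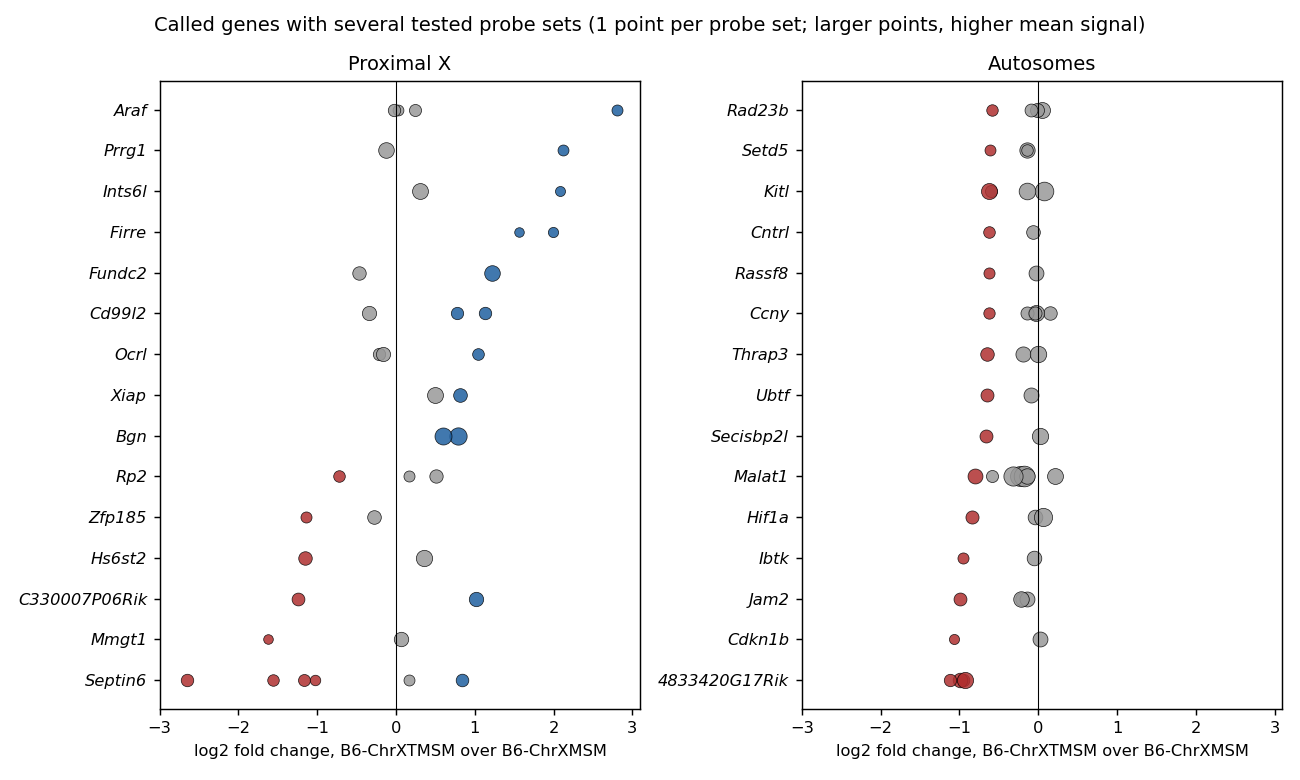
Log2 fold change (B6-ChrXTMSM over B6-ChrXMSM, 7 dpp) of every tested probe set of called genes that had several, on the proximal X (left) and the autosomes (right). Blue points were called higher, red points called lower and grey points not called. For most genes a larger grey point, a probe set with higher signal, lies nearer 0 than the called one, while the 4 points of 4833420G17Rik lie together.

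The same strain contrast was available in other males at 5 dpp, where 123 of 16949 probe sets were called (0.726%), with 0.496% higher and 0.23% lower in B6-ChrXTMSM testes. Of the 31 proximal calls at 7 dpp, 30 were tested at 5 dpp. All 30 had the same sign, beside 80.5% of all proximal probe sets tested at both ages. Of the 31, 25 were called the same way (80.6%), which were 75.8% of the 33 proximal calls at 5 dpp. Pearson's r between the log2 fold changes was 0.97 over the 30 probe sets and 0.89 over 236 proximal probe sets, as a description over probe sets that share arrays. Araf changed by 2.80 at 7 dpp and 3.16 at 5 dpp, and Septin6 by -2.65 at 7 dpp and -2.84 at 5 dpp.

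The exceptions at 5 dpp were 1 probe set each of Septin6 (0.41), Cd99l2 (0.60) and Bgn (0.49), the DNA-repair complex gene Brcc3 (0.51), the apoptosis inhibitor gene Xiap (0.11), and Rhox5, which was not tested there (-0.52). In the fit of all 12 arrays no proximal probe set was called for a difference of the strain effect between ages. Over the genome 1 of 17198 was called for this strain-by-age term (0.00581%), and 1590 had an unadjusted p under 0.05. Not all sizes were as close between ages as those of Araf and Septin6. 4933402E13Rik rose by 0.72 at 7 dpp and 1.63 at 5 dpp, and Ccdc160 by 1.03 and 1.73. Their terms were -0.91 and -0.70 (limma adjusted p-values 0.0712 and 0.105), so a difference between the ages was not shown for either.

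B6 over MSM offers the same pair of proximal X alleles on the strains' own autosomes, from arrays not used in the main comparison. There 3061 of 17702 probe sets were called (17.3%), 56 of 250 on the proximal X. Listed polymorphic probe sets were left out on the X only, and B6 and MSM also differ in autosomal sequence. The part of base differences under autosomal probes in these calls was not tested. Of the 31 calls, 26 were called the same way (83.9%), which were 46.4% of the 56. Again 30 were tested and all had the same sign, beside 68.8% of all proximal probe sets tested in both. Pearson's r over the 30 was 0.97, as a description. The calls that were missing were both of Bgn, Brcc3, Hprt (0.58, below 1.5-fold) and Rhox5, which was not tested.

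By level, B6-ChrXTMSM stood nearer B6 than MSM in 30 of the 31 calls, beside 61.5% of the 244 proximal X and 70.3% of the autosomal probe sets tested. B6-ChrXMSM stood nearer MSM than B6 in 29 of the 31, beside 60.7% of the proximal X and 28.8% of the autosomal ones. F1 males, whose proximal X is of B6 origin, stood nearer B6-ChrXTMSM in 30 of the 31, beside 71.3% of the proximal X and 59.5% of the autosomal ones. Araf shows this order, with F1 males at a median of 5.13, and so does Septin6, with F1 males at a median of 3.43. Xiap and Rhox5 were the exceptions. In the 20 autosomal calls F1 males also stood nearer B6-ChrXTMSM in all 20, so this place of the F1 males was not particular to the proximal X. Of those 20, B6-ChrXTMSM stood nearer B6 in 10 and B6-ChrXMSM nearer MSM in 1.

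**Figure D4:**
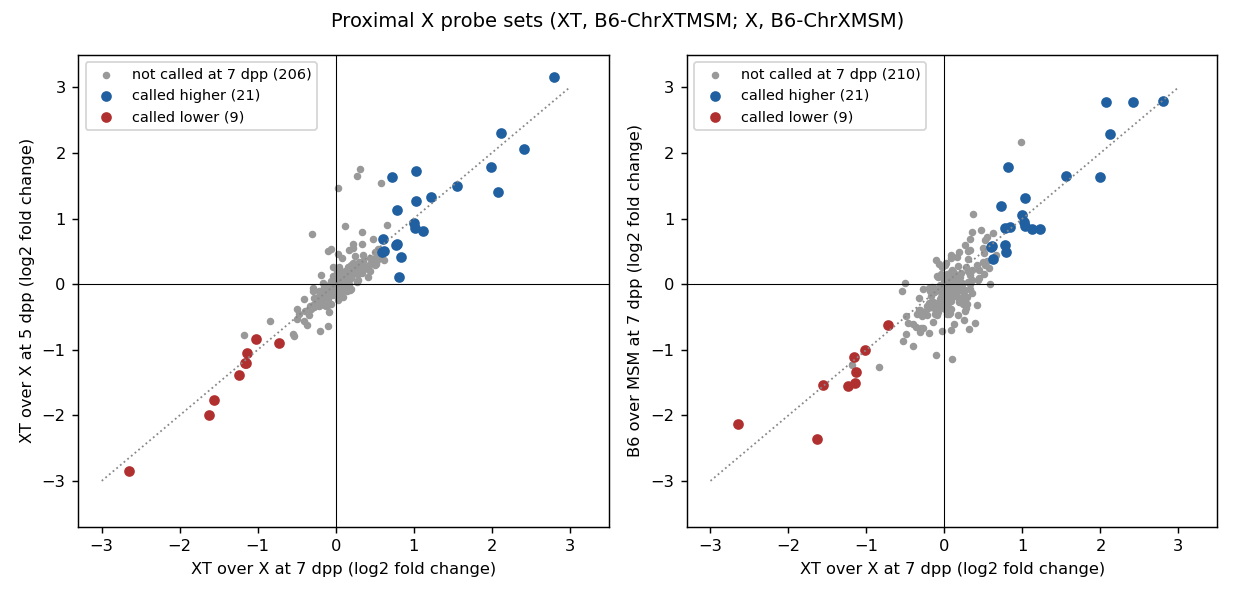
Log2 fold changes of tested proximal X probe sets at 7 dpp (horizontal) against those in other males at 5 dpp (left) and against B6 over MSM at 7 dpp (right). Coloured points are the 7 dpp calls, grey points the others, and the dotted line marks equal values; all 30 coloured points in each panel have the same sign on both axes.

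The distal X had 1 call. Chic1, a gene near the X inactivation centre, was lower in B6-ChrXTMSM testes by 0.80 on the log2 scale (mm9 chrX:100586283-100587014, limma adjusted p = 0.0295), while a second, brighter probe set changed by -0.07. This probe set lay above the filter in B6-ChrXMSM testes alone, and its call was absent without B6-ChrXTMSM replicate 1 or 2 and without B6-ChrXMSM replicate 1 or 2.

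Of 23 X-linked probe sets with a change of at least 2-fold, 20 were called, and the largest of the other 3 was in Mid1, a ubiquitin ligase gene that spans the pseudoautosomal boundary in laboratory mice. It was picked out after its values were seen. Its probe set (mm9 chrX:166413161-166413986) aligns past the end that the methods state for the MSM segment of either strain. Which allele each strain carries there was not tested. Mid1 read 3.43, 5.04 and 3.05 in B6-ChrXTMSM testes, against 6.29, 6.43 and 6.42 in B6-ChrXMSM testes. All 3 B6-ChrXTMSM males were below all 3 B6-ChrXMSM males, but the B6-ChrXTMSM males were spread widely, and at a log2 fold change of -2.54 (SE 0.43) the limma adjusted p was 0.0564. Its pseudoautosomal neighbour Erdr1 gave -1.04 (limma adjusted p = 0.236), with overlapping groups.

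The study mapped a testis weight locus to the distal X, and 5 listed genes of that region were tested. None was called, and their log2 fold changes lay between -0.10 (Trap1a, a tumour rejection antigen gene) and 0.16 (Nxf2, an mRNA export factor gene of the germ line). Taf7l, a germ cell paralogue of a general transcription factor subunit, changed by 0.06, Pwwp3b by 0.07 and Phex by -0.04. At 5 dpp Nxf2 had been called, averaging 5.41 ± 0.25 in B6-ChrXTMSM testes and 3.51 ± 0.67 in B6-ChrXMSM testes (SD, n = 3 each, log2 fold change 1.90, limma adjusted p = 0.0376). Taf7l (1.48) and Trap1a (1.12) were not called there, with limma adjusted p-values of 0.0911 and 0.101. The strain-by-age terms of Nxf2, Taf7l and Trap1a were -1.73, -1.42 and -1.23 (limma adjusted p-values 0.253, 0.379 and 0.35), so a difference between the ages was not shown for any of them.

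Of a list drawn up as germ cell genes on or beside the proximal X, 5 were tested and none was called. The spermatogonial transcription factor gene Sox3 read 3.84, 4.61 and 3.95 in B6-ChrXTMSM testes, against 4.46, 3.71 and 4.12 in B6-ChrXMSM testes, and the groups overlapped (log2 fold change 0.03, 95% interval -0.50 to 0.57). Tktl1, a transketolase-like gene, changed by 0.27 and Fmr1nb by 0.12, and Nr0b1, an orphan receptor gene in the boundary interval, by -0.24. Nr0b1 averaged 6.34 in B6-ChrXTMSM, 6.58 in B6-ChrXMSM, 6.46 in B6 and 6.56 in MSM testes. Sox3 averaged 4.13, 4.10, 6.12 and 5.96 in this order, so Nr0b1 did not share its pattern and is not read here as a germ cell marker.

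At 5 dpp Sox3 had differed, averaging 4.20 ± 0.03 in B6-ChrXTMSM testes and 2.74 ± 0.29 in B6-ChrXMSM testes (SD, n = 3 each, log2 fold change 1.47, limma adjusted p = 0.00487). The strain-by-age term for Sox3 was -1.43 with a limma adjusted p of 0.217, so a difference between the ages was not shown. Among 15 tested regulators of chromatin and transcription on the proximal X, none was called (median log2 fold change 0.02), and of 18 matrix and signalling genes 3 were called higher by their brightest probe set (Mamld1, Bgn and Hprt), beside 23 of 151 genes called by any probe set over the whole proximal X.

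On the autosomes, 4833420G17Rik, a gene without an assigned role on chromosome 13, had all 4 of its tested probe sets called lower. Its probe set with the largest change (mm9 chr13:120251582-120253146) read 4.18, 4.12 and 4.10 in B6-ChrXTMSM testes, against 5.30, 5.24 and 5.21 in B6-ChrXMSM testes. The 3 males of each strain lay close together and the strains apart, at a log2 fold change of -1.11 (SE 0.05, limma adjusted p = 0.000256). The others fell by 0.92 to 0.99.

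The brightest probe set of 4833420G17Rik averaged 7.22 ± 0.09 in B6-ChrXTMSM testes, against 8.15 ± 0.05 in B6-ChrXMSM testes, and 8.02 ± 0.09 in B6 and 6.36 ± 0.10 in MSM testes (SD, n = 3 each). By this probe set B6-ChrXTMSM testes stood between the parents and B6-ChrXMSM testes close to B6, whereas by the one with the largest change B6-ChrXTMSM testes stood below both parents (4.96 in B6 and 4.89 in MSM testes). At 5 dpp the same probe set averaged 7.20 ± 0.01 in B6-ChrXTMSM testes and 8.09 ± 0.09 in B6-ChrXMSM testes. None of the 8 neighbouring genes was called, the nearest being Paip1 (-0.04) on one side and Tmem267 (-0.44, limma adjusted p = 0.246) on the other. Whether B6-ChrXTMSM males carry MSM sequence at this place was not tested.

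The other autosomal falls were each of 1 probe set. Cdkn1b, the gene of the cell cycle inhibitor p27, read 2.51, 2.60 and 2.54 in B6-ChrXTMSM testes, against 3.83, 3.48 and 3.54 in B6-ChrXMSM testes (log2 fold change -1.07, SE 0.09, limma adjusted p = 0.002). This probe set is dim, and the brighter one changed by 0.02 (95% interval -0.10 to 0.14). Jam2, a junctional adhesion gene (-0.99), Ibtk, a kinase inhibitor gene (-0.96), the hypoxia factor gene Hif1a (-0.84), the noncoding RNA gene Malat1 (-0.80) and Kitl, the ligand gene for the KIT receptor of spermatogonia (-0.62), were also lower, with limma adjusted p-values of 0.0302, 0.00658, 0.0263, 0.0291 and 0.0104. Kitl read 7.18, 7.14 and 7.34 in B6-ChrXTMSM testes, against 7.80, 7.93 and 7.79 in B6-ChrXMSM testes, with no overlap.

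The brightest probe sets of Hif1a, Ibtk, Kitl, Jam2 and Malat1 changed by 0.06, -0.06, 0.07, -0.22 and -0.19, and none was called. In the 8 F1 males called probe sets spanned 2.96 to 4.35 (Jam2), 1.66 to 3.52 (Ibtk) and 5.61 to 7.29 (Kitl). For Cdkn1b, Jam2, Ibtk, Hif1a, Malat1 and Kitl alike, F1 males 1 and 2 stood highest. These falls were thus not independent of one another. The pattern was seen after the values, and its cause was not tested. Over the 15 called autosomal genes with several tested probe sets, 14 had only 1 called, and the median absolute log2 fold change over the 17 genes was 0.66 for the called probe sets and 0.06 for the brightest ones. Of the 20 autosomal calls, 19 were tested at 5 dpp with the same sign in each, 5 of them called. Over all autosomal probe sets tested at both ages, 62.3% had the same sign. In B6 over MSM 18 were tested, of which 14 were called the opposite way and 1 the same way. The sign was the same in 1 of the 18, beside 45.8% of all autosomal probe sets tested in both. The part of base differences under autosomal probes in the MSM values was not tested.

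The single autosomal rise was that of Cyp11a1, the side-chain cleavage enzyme gene that starts steroid synthesis in Leydig cells (mm9 chr9:57862803-57874831). It read 6.35, 6.33 and 6.45 in B6-ChrXTMSM testes, against 5.75, 5.85 and 5.66 in B6-ChrXMSM testes, without overlap (log2 fold change 0.62, SE 0.07, limma adjusted p = 0.00658). At 5 dpp it changed by 0.10 (limma adjusted p = 0.649). Over the 7 Leydig genes tested, the median log2 fold change was 0.36, beside 0.01 over all probe sets tested, and Cyp11a1 was the one called. The list's mean signal was 7.33, 7.24 and 7.91 in B6-ChrXTMSM testes and 7.13, 7.44 and 6.79 in B6-ChrXMSM testes, which overlapped.

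The autosomal count was small and moved with single arrays. It was 7 without B6-ChrXTMSM replicate 2, 7 without B6-ChrXMSM replicate 1, 9 without B6-ChrXMSM replicate 2 and 42 without B6-ChrXMSM replicate 3, against 20 with all arrays.

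No gene of the spermatogonial or meiotic lists was called. Of 11 tested genes of meiotic prophase, the log2 fold changes lay between -0.22 and 0.36 (median 0.07). The mean signal of the list was 4.58, 5.42 and 4.82 in B6-ChrXTMSM testes and 5.07, 4.59 and 4.95 in B6-ChrXMSM testes. These values overlapped, and those of B6 (6.18 to 6.31) and MSM testes (6.37 to 6.53) lay above all 6. In whole testes, fewer cells of a type and less RNA per cell cannot be told apart.

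None was called among 11 genes of meiotic entry (median log2 fold change 0.02), 14 of retinoic acid signalling (0.11), 15 of germ cell and piRNA function (0.07), 11 of undifferentiated spermatogonia (0.05) or 9 of differentiating spermatogonia (-0.01). Stra8, the retinoic acid-induced gene needed for meiosis, changed by -0.01 with a 95% interval of -0.61 to 0.59. A change inside this interval was not excluded with 3 males a strain. The interval is not a limit of detection, since a call rests on adjusted p-values and a larger change can also miss it. B6-ChrXTMSM replicate 2 had the highest mean of the 6 arrays for prophase, piRNA, undifferentiated and differentiating lists.

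Among the supporting cells, 1 of 23 tested Sertoli genes was called by its brightest probe set, which was Rhox5 (list median -0.02). None of 9 peritubular (0.08), 8 endothelial (0.07), 9 macrophage (0.23), 16 proliferation (0.03) or 8 immediate early genes (-0.08) was called. The macrophage list mean was 4.71, 4.53 and 4.63 in B6-ChrXTMSM testes, against 4.44, 4.43 and 4.49 in B6-ChrXMSM testes, without overlap. Of single probe sets, 17.1% did not overlap either. The means of the Sertoli, peritubular, endothelial, proliferation and immediate early lists overlapped. No erythroid or skeletal muscle marker passed the filter.

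Markers of tissue next to the testis varied from male to male. The adipose gene Car3 read 7.25, 5.72 and 3.99 in B6-ChrXTMSM testes, against 8.01, 4.41 and 2.51 in B6-ChrXMSM testes, and 0.62 to 2.18 in B6 testes. The epididymal gene Spink8 read 2.51, 1.98 and 5.38 in B6-ChrXTMSM testes, against 3.25, 4.18 and 4.61 in B6-ChrXMSM testes. Neither separated the strains. Of 12 adipose markers listed 4 were tested, with list means of 5.07 to 6.47 in B6-ChrXTMSM testes and 4.62 to 6.92 in B6-ChrXMSM testes, and of 13 epididymal markers 2 were tested, with 3.37 to 4.97 in B6-ChrXTMSM testes and 4.01 to 4.56 in B6-ChrXMSM testes. The part of such tissue in the autosomal calls was not tested.

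**Figure D5:**
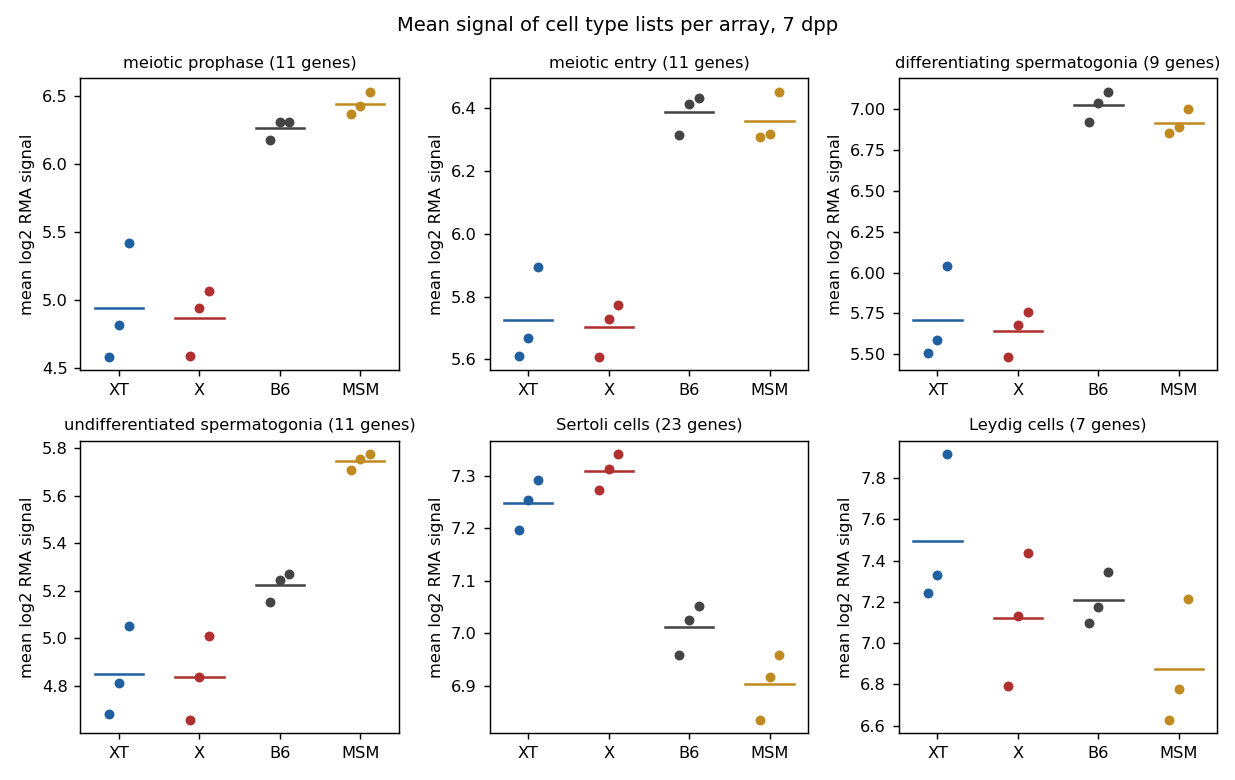
Mean log2 RMA signal of the tested genes of 6 lists in each 7 dpp array (points; lines, group means) of B6-ChrXTMSM (XT), B6-ChrXMSM (X), B6 and MSM testes. XT and X arrays overlap in all 4 germ cell lists and lie below B6 and MSM in them; the axes do not start at 0.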

How the data were processed

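Testis RNA was hybridised to Affymetrix mouse genome arrays, 1 male each. The values deposited by the authors are log2 signals made with RMA (background correction, quantile normalization and probe set summary) in GeneSpring GX, whose version is not given in the sources used here. Which arrays were normalized together was not stated. Precision is limited by how many arrays each group has.

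Of 45101 probe sets, 34958 had 1 gene in the platform annotation, 932 several and 9211 none, and 34871 with 1 gene on an autosome or the X were used. Probe sets of the X that the study lists as polymorphic were left out. The boundary and the mm9 places come from the study. The test was limma's moderated one (version 3.58.1, R 4.3.3, lmFit then eBayes, two-sided, Benjamini-Hochberg over all probe sets kept), after a check on simulated data. Differences between ages used a strain-by-age term. Samples were grouped by their GEO labels, which call the replicates biological.

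Named genes were, by 1 probe set each, the 10 largest rises and falls among proximal calls, the 6 largest of the other chromosomes, called list members, and all tested members of the Rhox, proximal germ cell and weight locus lists. Mid1, Erdr1, Xiap, Brcc3, 4930550L24Rik, 4933402E13Rik, Nr0b2, Car3, Spink8, Stra8 and the chromosome 13 neighbours were added after their values were seen. Genes and lists were chosen with earlier results of these data known. A list's genes were represented by their brightest tested probe set. Alternatives changed the filter, the polymorphic set, the replicate block, the spread estimate, the scaling, the fold threshold and the arrays.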

Additional observations from a re-analysis of the deposited data

Results flagged for a closer look

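In the F1 testes at 7 dpp, 1 of 8 males stood apart for Firre and for Rhox5, among 37 tests of this kind, of which chance gives about 1 in 20. For Firre the lowest male was at 3.91, against a median of 4.17 and a highest value of 4.26, and the gap to its neighbour was 0.579 of the range. For Rhox5 the highest male was at 3.86, against a median of 2.81 and a lowest value of 2.43, and the gap was 0.605 of the range.

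Nr0b2, the gene of an orphan receptor that represses other nuclear receptors, was the one call of the strain-by-age term. Its strain difference was 0.68 higher at 7 dpp than at 5 dpp (SE 0.08, limma adjusted p = 0.0289). At 7 dpp it read 3.24, 3.23 and 3.23 in B6-ChrXTMSM testes, against 2.92, 3.01 and 2.91 in B6-ChrXMSM testes, all below the filter. At 5 dpp it averaged 2.95 ± 0.08 in B6-ChrXTMSM testes and 3.34 ± 0.06 in B6-ChrXMSM testes (SD), a log2 fold change of -0.39 (limma adjusted p = 0.0376). Only the mean of B6-ChrXMSM testes at 5 dpp exceeded the filter, and by little. The probe set was thus tested through that group alone, and the term rests on levels below the filter.

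The listed polymorphic probe sets, left out of the comparison, also held calls. On the proximal X 9 of 59 were called (15.3%), 6 higher and 3 lower, against 12.7% of the others. They belonged to Firre (2.95), Araf (1.99), Brcc3 (1.48), Timp1 (1.29), Lamp2 (0.74), Eola1 (0.61), Fundc2 (-1.03), Smim10l2a (-1.21) and Mdrl (-0.67). The part of base differences between the alleles in these values was not tested.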

How the results depend on the processing

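With a stricter filter (linear signal of 50) there were 20 calls in all, 12 of them proximal and 7 autosomal, 10 shared with 5 dpp, 8 shared with B6 over MSM, and 3 for the strain-by-age term. Without a minimum fold change there were 88 in all, 47 proximal, 40 autosomal and 40 shared with B6 over MSM. Without a filter there were 9 autosomal calls, 0 distal and 0 for the strain-by-age term, and the genome held 22 higher and 16 lower. An intensity trend gave 35 autosomal and 3 distal calls, all 7 dpp groups in 1 fit gave 6 autosomal, the polymorphic set kept gave 2 distal, and subtracted array medians gave 2 and all 38 arrays 0 for the strain-by-age term. Leaving out 1 array gave 35 to 72 calls in all, 26 to 31 proximal, 7 to 42 autosomal and 0 to 2 distal. The causes were not tested. In 2 alternatives chosen after the data were seen, there were 29 proximal calls without probe sets placed on another chromosome, and 1 distal call without genes past the end of the MSM segment of B6-ChrXTMSM.

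Deviations of same-numbered males correlated at 0.00, -0.19 and 0.08, and those of different-numbered males at -0.19 to 0.19. The labels do not say whether the numbers pair the males, and these correlations cannot exclude a pairing. The fit with the replicate block gave 35 calls in all, 27 proximal, 8 autosomal and 0 distal.

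Of 23 proximal genes called, 18 stayed called the same way in every alternative that tested them. Brcc3, Rhox5, Xiap, Ocrl and Zfp185 lost the call in 9, 8, 6, 4 and 2 alternatives. Of 18 other genes, 4833420G17Rik alone stayed. Leaving out 1 array turned the sign of uncalled genes, with log2 fold changes of -0.21 to 0.12 for Rhox13, -0.30 to 0.0252 for Trap1a, -0.21 to 0.22 for Sox3, -0.12 to 0.54 for Tktl1, -0.0931 to 0.28 for Fmr1nb, -0.15 to 0.23 for Taf7l, -0.0484 to 0.32 for Nxf2 and -0.13 to 0.0526 for Phex.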
